A study of Mus musculus with 2 samples.

Results

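The genes described here are 10 immediate early genes: the FOS family members Fos, Fosb, Fosl1 and Fosl2, the JUN family members Jun and Junb, and the 4 further genes Egr1, Atf3, Maff and Ier3. They were chosen by name, and the deposited table, which spells them in capitals (FOS, FOSB, FOSL1, FOSL2, JUN, JUNB, EGR1, ATF3, MAFF and IER3), holds each as 1 row among 25430 distinct names. The table holds RNA sequencing of primary mouse embryonic fibroblasts, connective tissue cells grown from E13.5 embryos that came from matings of Sptbn1+/- parents. One library was made from wild-type cells and one from Sptbn1 knockout cells, which the series' title describes as homozygous for the loss of beta-2 spectrin (β2SP), which links the cell membrane to actin. Both were grown in DMEM/F12 with fetal bovine serum, and the labels name no agent, harvest time or passage. How many embryos each library holds is not stated. With 1 library per genotype no difference has a replicate check, no p-value of its own can be given, and each statement compares 2 libraries. The header of the wild-type column also carries a -/- mark, and every direction rests on its reading as wild type.

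Immediate early genes are transcribed within minutes of a stimulus such as serum, a growth factor or stress, without need for new protein synthesis. Signals through MAP kinases reach transcription factors already bound at their promoters, and the RNAs are short-lived, so that levels in growing cells are a snapshot. FOS and JUN proteins pair through leucine zippers into the dimer called AP-1, which binds the sequence TGANTCA in DNA and drives genes such as the collagenases. JUN proteins can pair with each other, whereas FOS proteins need a partner.

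Values are FPKM, a fragment count divided by transcript length and by the number of fragments mapped, which allows levels of different genes to be compared within a library. A log2 ratio is log2 of (knockout FPKM + 1) over (wild-type FPKM + 1), negative where the knockout library was lower, and the added 1 shrinks the ratio of low genes. Where a pair of FPKM values stands without names, the first is that of the knockout library. Genes were called measured at a mean of 1 FPKM or more over both libraries. This held for 11070 genes and for 9 of the 10 members, Fosb lying below. The median log2 ratio of all measured genes was -0.05, so a member near that value differed no more than the median gene did.

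Several checks bear on the libraries. Sptbn1 itself was at 36.6 FPKM in knockout and 69.6 FPKM in wild-type cells, a log2 ratio of -0.91. It was lower in the library labelled knockout, but 52.5% of the wild-type value remained there, at the 96.2nd percentile of measured genes by mean FPKM. FPKM cover the whole gene and do not show which exons these reads came from, so the loss of the gene is known from the label only. All 10 fibroblast markers, among them collagen and Pdgfra genes, were measured and summed to 2947 FPKM in knockout and 3088 FPKM in wild-type cells. The 12 macrophage markers, all above 0 in both libraries, summed to 219 and 292 FPKM with a median log2 ratio of -0.32. The 6 endothelial markers summed to 10.2 and 11.6 FPKM, nearly all of it Flt1 (9.01 and 10.1 FPKM). The 6 epithelial markers summed to 2.16 and 2.89 FPKM, and Epcam and Cldn4 were listed at 0 in the knockout library. The sources used here do not give total fragment counts. Among low genes the commonest ratio of steps was 1.61, with more FPKM per fragment in the knockout library, which was therefore the shallower.

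Promoter sequences of the genes on which the results turn, the most abundant FOS and JUN genes, Fos itself and the pair that lay furthest apart, are shown first. Each line is the 100 bases that end just before a RefSeq transcript start in GRCm38.p6, read 5′ to 3′ along the gene, with motif matches in capitals. The positions are chr5:32136372-32136471 (plus strand) for Fosl2, chr12:85473790-85473889 (plus) for Fos, chr4:95052223-95052322 (minus) for Jun, chr15:79347420-79347519 and chr15:79348302-79348401 (plus) for the second and the last of the 3 Maff starts, and chr17:35821613-35821712 (plus) for Ier3. The reads were aligned to NCBI build 37.2, an earlier build.
Fosl2: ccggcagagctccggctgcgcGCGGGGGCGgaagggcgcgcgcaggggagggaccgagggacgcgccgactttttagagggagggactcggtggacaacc
Fos: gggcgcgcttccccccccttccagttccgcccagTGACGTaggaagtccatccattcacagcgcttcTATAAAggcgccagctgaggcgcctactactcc
Jun: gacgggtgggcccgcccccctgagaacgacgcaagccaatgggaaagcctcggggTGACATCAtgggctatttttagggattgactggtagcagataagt
Maff, second start: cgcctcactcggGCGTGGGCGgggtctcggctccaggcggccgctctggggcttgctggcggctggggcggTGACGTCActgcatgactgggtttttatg
Maff, last start: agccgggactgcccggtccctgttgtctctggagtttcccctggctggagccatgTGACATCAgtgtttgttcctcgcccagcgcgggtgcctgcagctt
Ier3: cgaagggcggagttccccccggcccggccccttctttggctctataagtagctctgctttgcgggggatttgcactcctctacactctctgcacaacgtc

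The motifs were searched on both strands of 300-base windows (250 before and 50 after the start), 10 windows of 8 members and 32851 in all. The cyclic AMP response element TGACGTCA, bound by CREB and ATF proteins, was found at the second Maff start and in 1.79% of all windows. Its shorter form TGACGT, which lies within it, was found in Fos, Atf3 and the second Maff window, and in 7.51% of all windows. The variant TGACATCA, known from the Jun promoter as a site of JUN and ATF2, was found in Jun and at the last Maff start, 45 to 38 bases before the start in both, and in 3.62% of all windows. The EGR motif GCGNGGGCG was found in Fosb, Fosl2 and the second Maff window, and in 5.55% of all windows. TATAAA was found in Fos and Junb and in 13.6% of all windows. The Fos match lay at -33 to -28 from the start, and the Junb match began at the start itself. Neither TGANTCA (7.81% of all windows) nor the CArG box bound by SRF (1.63%) was found in the windows of these 8 members. No window of Egr1 or Fosl1 was searched, nor any base more than 250 before a start. The search therefore does not show that the 10 genes lack such sites. The members' windows held 5 to 32 CpG dinucleotides, against a median of 7 over all windows. The data hold no measure of binding, so these matches are descriptions of sequence only.

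The 10 genes spanned a wide range of levels, and their order was nearly the same in both libraries. Fosl2 was the highest, followed by Ier3, Egr1 and Jun, and Fosb was the lowest. Maff was the fifth highest in the wild-type library and only the seventh in the knockout library, and Junb and Fosl1 each moved up by 1 place. No spread between cultures is known, so it cannot be said which neighbours in this order differ.

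**Figure D1:**
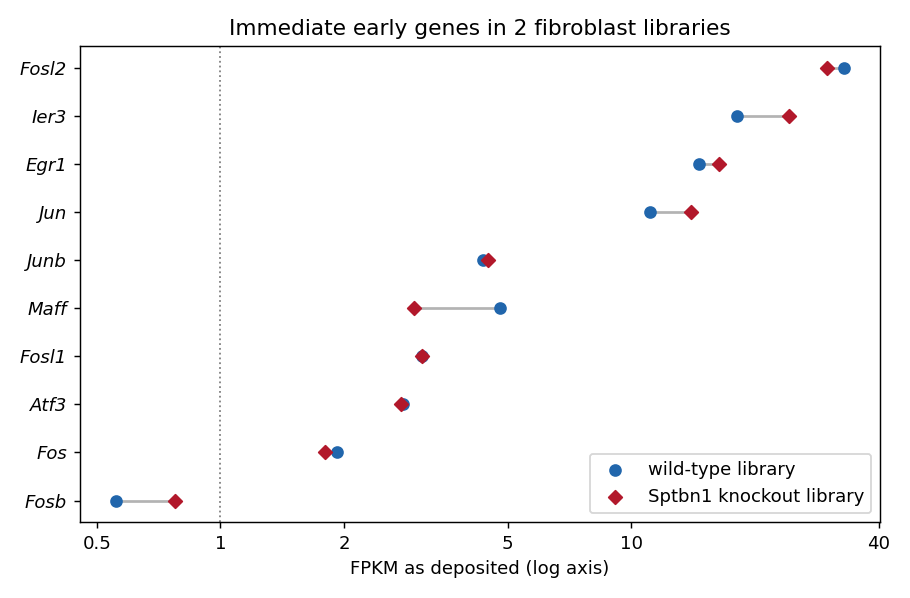
FPKM of each of the 10 genes in the wild-type library (blue circles) and the Sptbn1 knockout library (red diamonds) on a log axis, ordered by mean, with a dotted line at 1 FPKM. Maff has the widest gap toward lower values in the knockout library (2.96 against 4.79 FPKM), and Ier3, Jun and Fosb lie higher there.

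The FOS family was made up mostly of Fosl2 in both libraries. Fosl2, which encodes FRA2, a FOS protein that lacks a strong activation domain, was at 30.0 FPKM in knockout and 32.9 FPKM in wild-type cells, a log2 ratio of -0.13. It held 84.1% of the FOS family sum in knockout and 85.5% in wild-type cells. Fosl1, which encodes the related FRA1, was at 3.10 FPKM in both libraries (log2 ratio 0.00). Fos, the classic serum-induced gene whose RNA decays within minutes, was at 1.80 FPKM in knockout and 1.93 FPKM in wild-type cells (-0.07). Fosb, whose protein like Fos carries an activation domain, was at 0.776 and 0.557 FPKM (0.19, or 0.42 with a pseudocount of 0.1 FPKM), below the measured limit. The level of Fosl2 was 16.7 times that of Fos in knockout and 17.1 times in wild-type cells. None of these 4 genes differed by 1.2-fold on the log2 scale used.

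Among JUN genes, Jun was the most abundant and was higher in the knockout library. It was at 14.0 FPKM there and at 11.1 FPKM in wild-type cells, a log2 ratio of 0.31. Junb, a JUN protein that can hold back JUN activity, was at 4.48 and 4.36 FPKM (0.03). Jund, the remaining family gene and the one least dependent on stimulation, was at 4.68 and 3.96 FPKM (0.20). Jun made up 60.4% of the JUN family sum in knockout and 57.1% in wild-type cells, and Junb 19.4% and 22.5%. These shares do not depend on how the libraries are scaled to each other.

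**Figure D2:**
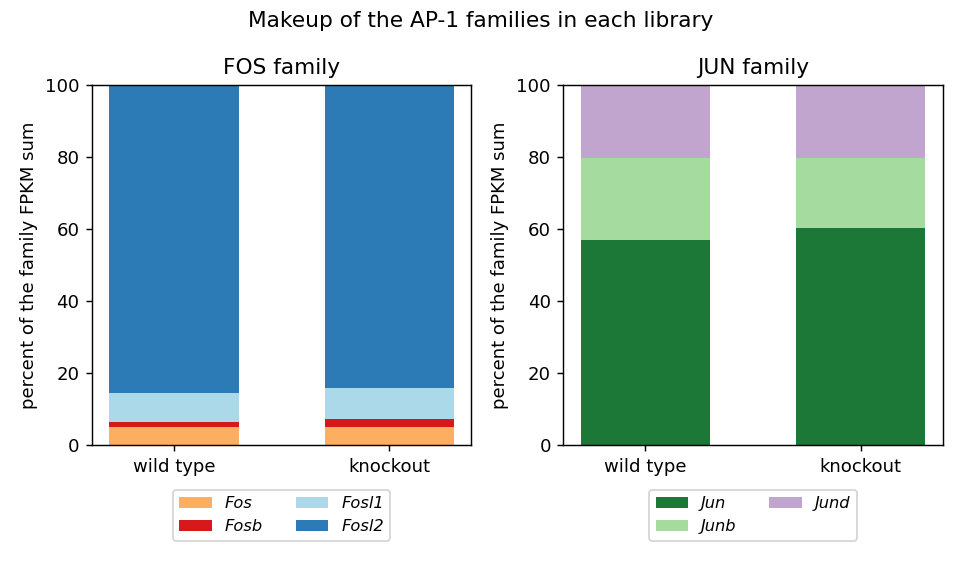
Share of each gene in the summed FPKM of the FOS family (left) and of the JUN family (right), in percent, for each library. Fosl2 fills 84.1% and 85.5% of the FOS bars and Jun 60.4% and 57.1% of the JUN bars in the knockout and wild-type libraries.

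Set against each other, the JUN family sum was 0.648 times the FOS family sum in knockout and 0.504 times in wild-type cells. The FOS sum was 35.7 FPKM in knockout and 38.5 FPKM in wild-type cells, and the JUN sum 23.1 and 19.4 FPKM. Jun and Fosl2, the leading gene of each family, lay on opposite sides of the median gene. Jun was at 0.465 times the level of Fosl2 in knockout and 0.337 times in wild-type cells. The strand setting of the counting is not given, so where exons overlap on opposite strands the reads of both genes cannot be told apart. In GENCODE annotation Fosl1 shares 1163 of its 2033 exonic bases with Ccdc85b, and Jun 232 of 3189 with the antisense gene Junos. Junb shares 173 of 2301 with Prdx2, and Jund 877 of 1668 with an antisense gene.

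Maff and Ier3 differed the most among the measured members, in opposite directions. Fosb, below the measured limit, was at 139% of its wild-type value. Maff encodes a small MAF protein, which has a leucine zipper but no activation domain and pairs with other zipper proteins. It was at 2.96 FPKM in knockout and 4.79 FPKM in wild-type cells, 61.8% of the wild-type value and a log2 ratio of -0.55. Of the 500 measured genes nearest in mean FPKM, 1.00% had a lower log2 ratio. Ier3, which encodes a stress-induced regulator of cell survival, was at 24.2 FPKM in knockout and 18.1 FPKM in wild-type cells, 134% of the wild-type value (0.40). It stood at the 98.2nd percentile of its 500 nearest genes. The level of Ier3 was 8.17 times that of Maff in knockout and 3.78 times in wild-type cells. The macrophage markers had a median of -0.32, with 10 of 12 below 0, against 63.1% of all measured genes. Their part in the values of Maff and Ier3 was not tested. In bulk RNA, fewer cells of a type and less RNA per cell cannot be told apart.

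The last pair of members lay nearer to the median gene. Egr1, a zinc finger factor induced through SRF, was at 16.3 FPKM in knockout and 14.6 FPKM in wild-type cells, a log2 ratio of 0.15 at the 93.0th percentile of its 500 nearest genes. Jun stood at the 96.6th percentile of its own. Atf3, a stress-induced member of the ATF family that can repress its targets, was at 2.76 and 2.78 FPKM (-0.01). Fos (40.6th), Atf3 (60.2nd), Fosl1 (62.6th), Fosl2 (30.6th) and Junb (71.6th) stood inside the central part of their nearest genes.

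Counted together, the 9 measured members went both ways. Above 0 were 4 of 9, against 36.9% of all measured genes, and the median of the 9 was 0.00 against -0.05. At 1.2-fold or more on the log2 scale used, a limit chosen after the values were seen, 2 of 9 were higher (Ier3 and Jun), against 5.54% of all measured genes, and 1 was lower (Maff), against 10.6%. At 1.5-fold or more there were 0 of 9 in either direction, against 1.04% of all measured genes higher and 1.23% lower. With a pseudocount of 0.1 FPKM, Maff passed 1.5-fold at -0.68. On a common FPKM sum, which moved the median gene from -0.05 to 0.33, Jun, Egr1 and Ier3 passed 1.5-fold higher at 0.74, 0.59 and 0.84, and Fos, Fosl1, Fosl2 and Atf3 changed from negative to positive.

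**Figure D3:**
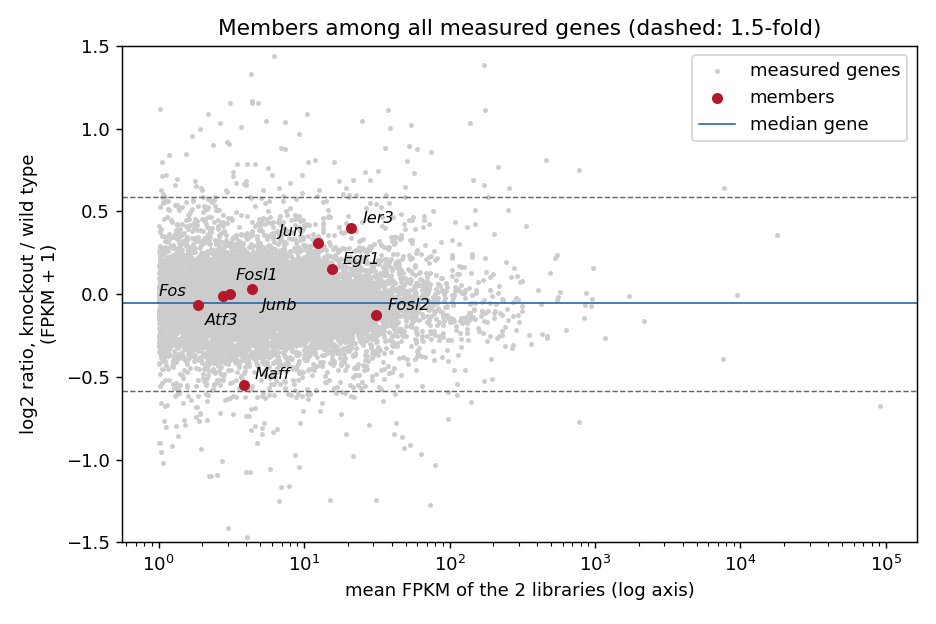
Log2 ratio of knockout over wild type (FPKM + 1) against the mean FPKM of both libraries (log axis) for all measured genes (grey) and the 9 measured members (red), with the median gene as a blue line and dashed lines at 1.5-fold. 43 genes lie beyond the vertical axis. Maff at -0.55 and Ier3 at 0.40 are the outermost members, and all 9 lie between the dashed lines.

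In the authors' deposited table the 2 measured members with the largest differences, Maff and Ier3, did not have the small p-values. The p-value was 0.018871 for Junb, 0.026666 for Jun, 0.036833 for Egr1 and 0.041713 for Fos. These were 4 of 9 measured members below 0.05, against 5.6% of all measured genes in the authors' deposited table. Higher in the knockout library with such a p-value were 3 of 9, against 2.01% of all measured genes, and lower was 1 of 9, against 3.59%. For Maff the authors' deposited table gives 0.17629 and for Ier3 0.66442. Its values for the remaining genes were 0.25873 for Fosb, 0.3967 for Fosl2, 0.96835 for Atf3 and 0.99454 for Fosl1. They hold no spread between cultures.

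A log2 ratio without a pseudocount and a p-value together imply a standard error, the one that would give that p-value under a normal distribution. For Junb it was 0.0170, which is 0.0603 times the median of its 500 nearest genes in FPKM, and for Fos it was 0.0504 (0.127 times). Egr1 had 0.0763 (0.379 times) and Jun 0.151 (0.720 times). Under 0.5 times were 3 of the 9 members, against 2.1% of the genes for which it could be computed. In the authors' deposited table all 3 have p-values below 0.05. Among genes with such p-values, 3 of the 4 members and 36.0% of all genes lay under 0.5 times. The implied standard error is computed from the p-value, so a small one goes with a small p-value by construction. These shares therefore do not show whether the trait is particular to the members. At the other end, Ier3 had an implied standard error of 0.961, 5.04 times that of its nearest genes, and Maff one of 0.514 (1.67 times). Atf3 (1.01 times), Fosl1 (1.28 times) and Fosl2 (0.841 times) lay near their neighbours.

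In units of their neighbours' median implied standard error, Maff and Ier3 led the measured members. The log2 ratio without a pseudocount was 2.26 such units for Maff, 2.19 for Ier3 and 1.60 for Jun. For Egr1 it was 0.791 units, for Fos 0.259 and for Junb 0.142. The 4 members with p-values below 0.05 had 1, 1, 2 and 4 exons in their longest GENCODE transcript (Jun, Junb, Egr1 and Fos), and measured genes had a median of 9. The other members also had few, Ier3 2, Maff 3, and Fosb, Fosl1, Fosl2 and Atf3 4 each. Jund, with 1 exon, was given 0.35419 in the authors' deposited table, with an implied standard error 0.909 times that of its neighbours. The part of exon number was not tested.

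**Figure D4:**
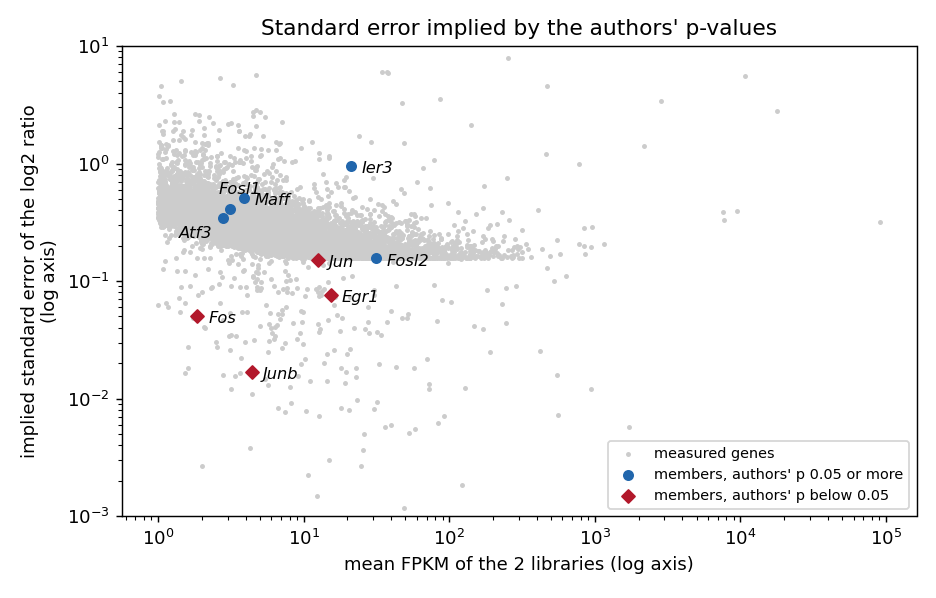
Standard error of the log2 ratio without a pseudocount, implied by the authors' p-values, against mean FPKM (both axes log). Measured genes are grey, and members are red diamonds where the authors' p-value is below 0.05 and blue circles elsewhere. Junb (0.0170), Fos (0.0504) and Egr1 (0.0763) lie under the band of genes at their level and Ier3 (0.961) above it, and 7 genes lie beyond the vertical axis.

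Genes that act with the members were described from 7 lists, none of which has a test here. The 5 list medians below 0 turned positive on a common FPKM sum, where the median gene was at 0.33. Other zipper proteins that partner with AP-1 had 8 measured genes of 11 listed, 5 above and 3 below 0, with a median of 0.05. Of all measured genes, 36.9% lay above 0. Mafk, a second small MAF gene, was at 2.48 FPKM in knockout and 3.78 FPKM in wild-type cells (-0.46), the same direction as Maff. Mafg, the remaining small MAF gene (chosen after its values were seen), was at 7.09 and 6.63 FPKM (0.08). Atf2, which pairs with JUN, was at 14.2 and 15.8 FPKM (-0.14). Jund is also on this list.

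The other immediate early genes had 25 measured of 29, with 10 above and 15 below 0 and a median of -0.12. At 1.2-fold or more on the log2 scale used, 1 was higher (against 5.54% of all measured genes) and 5 were lower (against 10.6%). Myc, the growth-promoting transcription factor gene, was at 5.07 FPKM in knockout and 7.60 FPKM in wild-type cells (-0.50). Phlda1, induced by growth factors, was at 5.25 and 6.90 FPKM (-0.34). Ier5, a heat- and serum-induced gene, was at 11.7 and 14.8 FPKM (-0.32). These 3 had the largest log2 ratios in size on the list, and all lay below the median gene. The 25 measured genes of the list split evenly around it, 12 above and 13 below. Of the 9 measured members, 6 lay above it and 3 below.

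Upstream, the list of SRF, ternary complex and CREB factors had a median of -0.16. Of its 9 genes, 7 lay below 0, against 63.1% of all measured genes, and 7 lay below the median gene. Crem was at 1.82 FPKM in knockout and 2.57 FPKM in wild-type cells (-0.34), the ternary complex factor gene Elk3 at 15.3 and 18.7 FPKM (-0.28), and Atf1 at 16.8 and 20.0 FPKM (-0.24). Elk1 was listed only jointly with Cfp. The MAP kinases and the kinases that activate them had a median of -0.04, near the median gene. Of 12 measured, 10 lay below 0, as did 63.1% of all measured genes, but 7 lay above the median gene and 5 below it. Mapk8, which encodes the JNK1 kinase that phosphorylates JUN, was at 5.59 and 4.52 FPKM (0.26). Map2k7, a kinase that activates JNK, was at 8.54 and 10.2 FPKM (-0.23), and Map2k1, a growth factor pathway kinase, at 24.0 and 27.6 FPKM (-0.19). No gene of the kinase list reached 1.2-fold on the log2 scale used, in which the added 1 FPKM shrinks the ratio.

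Feedback inhibitors that shut MAP kinase signalling off had a median of -0.07 and lay around the median gene, 6 of 13 above and 7 below it, with 10 of the 13 below 0. Dusp6, a MAP kinase phosphatase that is itself induced by growth factor signalling, was at 3.59 FPKM in knockout and 4.43 FPKM in wild-type cells (-0.24). Dusp14 was at -0.19 and Dusp16, a JNK phosphatase, at -0.15, and none of the 13 reached 1.2-fold on the log2 scale used. Heat shock genes had a median of 0.06, with 6 of 9 above 0, against 36.9% of all measured genes. Above the median gene were 7 of the 9. The inducible chaperone gene Hspa1b was at 1.48 and 2.08 FPKM (-0.31), while Hspe1 was at 0.26 and Hspb1 at 0.25.

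Among textbook AP-1 targets, the secreted phosphoprotein gene Spp1 was at -1.51, the collagenase gene Mmp13 at -1.24 and the stromelysin gene Mmp3 at -1.04. The stromelysin gene Mmp10 was at -1.01. These 4 were known to be low from earlier results when the list was made, so the list of 15 measured genes and its median of -0.22 support nothing. The other 11 had a median of -0.14, with 8 below and 3 above 0, where 63.1% of all measured genes lay below 0. Of the 11, 0 differed by 1.5-fold, against 1.04% of all measured genes higher and 1.23% lower. Among the members, Jun was at 126% of its wild-type value, Junb at 103%, Fosl1 at 99.8%, Atf3 at 99.1%, Fos at 93.1%, Fosl2 at 91.2%, Maff at 61.8%, Fosb at 139%, Egr1 at 112% and Ier3 at 134%. Several of the targets are also expressed by macrophages, whose markers had a median of -0.32, and that part was not tested.

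**Figure D5:**
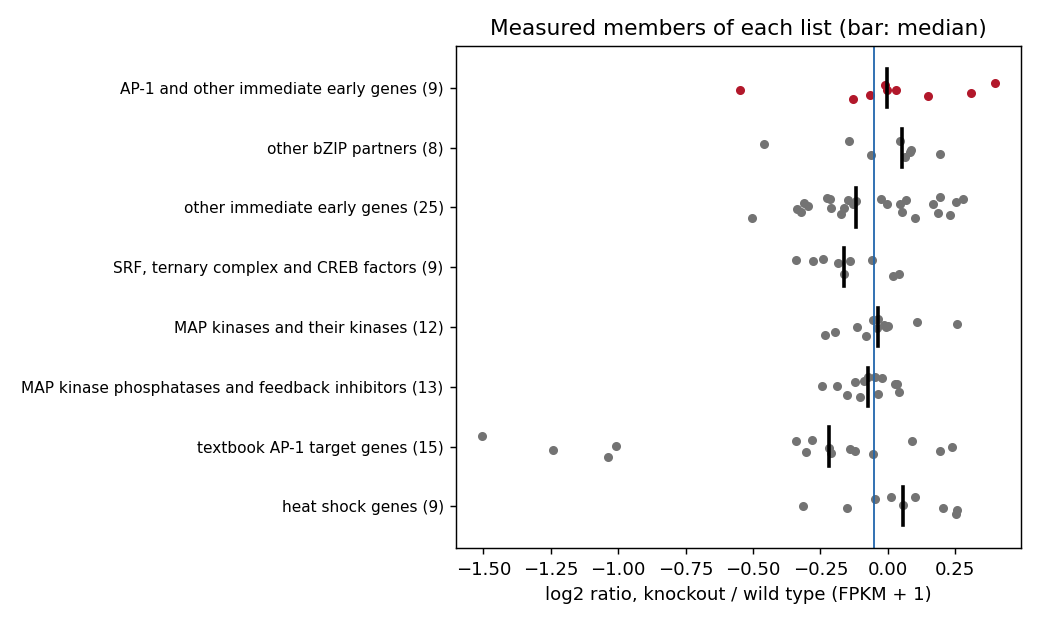
Log2 ratio of knockout over wild type (FPKM + 1) of each measured gene in the 10-gene group (red) and in 7 further lists (grey), with the number of measured genes in brackets, black bars at the medians and a blue line at the median of all measured genes (-0.05). The 9 members spread from -0.55 (Maff) to 0.40 (Ier3) around a median of 0.00.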

How the data were processed

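RNA sequencing libraries of 1 wild-type and 1 Sptbn1 knockout fibroblast culture were compared. Per the series' design text the authors aligned reads to NCBI mouse build 37.2 with TopHat2 2.0.10, estimated FPKM with Cufflinks and compared libraries with Cuffdiff2. Per the file headers the deposited table gives FPKM per gene and a p-value. Its wild-type column also carries a -/- mark and was assigned by its match to the title WT. The authors' log2 column, with 1768 cells that are not numbers, was not used.

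Log2 ratios (pseudocount 1 FPKM, mean of 1 FPKM or more), the standard error that the ratio and p-value imply, and percentiles among the 500 genes nearest in mean FPKM were computed with Python 3.11.15, numpy 2.4.6, pandas 2.3.3 and scipy 1.17.1. The ratio was tested on simulated data. No row of a member's name was repeated. Symbols were matched through RefSeq names (GRCm38.p6), and Maf was not analysed here. The text names all members, Jund, Sptbn1 and the 3 measured genes of each of the 7 gene lists with the largest log2 ratio in size. The members and lists were chosen with earlier results of these data known. Values of a few genes are not reported here. Alternatives were another pseudocount, 3 scalings, 2 filters and summed repeated names. Total depth is unknown, so no interval or detection floor was computed.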

Additional observations from a re-analysis of the deposited data

How the results depend on the processing

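The zero point of the log2 ratios depends on the scaling. The median of the measured members was 0.00 as deposited, 0.049 when centred on the median gene, 0.045 at a common upper quartile, 0.35 on a common FPKM sum and 0.20 on a common sum without the rows Mir682 and Dnaja1 (added after seeing the data). Without a filter it was 0.015 over 10 members, and at a mean of 5 FPKM or more it was 0.23 over 4. The members' median minus that of all genes lay between 0.02 and 0.06 in every setting but the last, where it was 0.29. Members at 1.5-fold or more higher numbered 0 as deposited, 3 on the common sum (8.45% of all genes) and 1 on the common sum without Mir682 and Dnaja1 (2.93%). Members at 1.5-fold or more lower numbered 1 with a pseudocount of 0.1 FPKM (2.51% of all genes) and 0 in the other settings. Maff stayed negative and Jun, Junb, Egr1, Ier3 and Fosb positive in each setting run. Of the 273 other recomputed values, 101 moved by less than 0.005 and 33 changed sign. The number of MAP kinase list genes above 0 was 2 as deposited, 7 when centred and 8 at the common upper quartile. No paired analysis was possible because each genotype had 1 library. No library could be left out for the same reason.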
